A study of Homo sapiens with 6 samples.

Results

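The genes described here are 45 interferon-stimulated genes and interferon regulators, chosen by symbol: protein-coding genes of the IFIT, IFI, IFITM, OAS, MX, ISG, GBP and SAMD9 families, the interferon receptors, the interferon regulatory factors (IRF), HERC5 and HERC6, and 8 further symbols such as RSAD2, USP18, RIGI and BST2. They are 45 of the 14884 genes that carried a name on the array. In a table of human genes, a total of 65 protein-coding symbols match the choice, and the other 20, among them MX1, OAS1, OAS2, OAS3, IFNAR1, IFNAR2, IFI6, IFI27, GBP1, GBP2 and CMPK2, belong to no named array feature and were not analysed here. The name rule also took in IRF2BP1, IRF2BP2 and IRF2BPL, which are binding partners of IRF2 or their relative and not interferon regulatory factors. The other 42 were likewise taken by symbol, and whether each of them answers to interferon was not examined. For short, all 45 are called interferon genes below. Each gene had 1 array feature except IRF2BP2, for which the brightest of several was read.

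MOLM14 is an established cell line of human acute myeloid leukaemia, and its cells were grown in RPMI medium with serum. The cells were electroporated with 70 nM of siRNA against ATF4, the transcription factor of the integrated stress response (siATF4, 3 arrays), or with 70 nM of a non-targeting control siRNA pool (siCTRL, 3 arrays). Neither set had been given interferon, as far as the labels say, and no untransfected cells were among the samples. The labels call the arrays of a group technical replicates numbered 1 to 3 and do not say whether they came from separate cultures, so a p-value here measures array-to-array spread only, which may be technical.

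Type I interferons bind IFNAR1 and IFNAR2 and interferon-gamma binds IFNGR1 and IFNGR2. Both receptors act through Janus kinases on STAT proteins. IRF9 is the DNA-binding part of the complex ISGF3, which binds the interferon-stimulated response element (ISRE) in promoters of antiviral genes, while interferon-gamma acts mainly through gamma-activated sites (GAS). Foreign RNA in the cytosol is detected by RIGI and IFIH1, whose signal activates IRF3 and IRF7 and with them the genes for interferon itself. Monocyte-like cells, the lineage MOLM14 resembles, carry this system and hold a low tonic level of its target genes.

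Levels are log2 array signals as deposited. They compare arrays for 1 gene and not 1 gene with another. Array medians lay between 3.88 and 3.96, and values below the lower quartile of 3.38 to 3.45 can be close to background. The siATF4 replicate 1 array stood apart from the rest. On it 22 genes lay at least 2 log2 below, and 20 genes at least 2 log2 above, all of the other 5 arrays, which were within 1 log2 of each other for these genes. Each of the other 5 arrays had 0 such genes in either direction. IFITM1 was the 1 interferon gene among the 22. Cell type markers differed on that array too: MPO, a myeloid granule enzyme, read 5.58 there against 8.45 to 10.45 on the others, and PAX5, a B cell factor, read 3.76 against 5.28 to 6.12. Other myeloid markers were highest on that array: CSF1R, the M-CSF receptor, read 8.18 there against 5.05 to 6.57, CD4 8.05 against 6.58 to 7.50, SPI1 8.52 against 7.78 to 8.23 and MEIS1 6.13 against 5.01 to 5.84. Of 13 myeloid markers 9 were measured, and CD14 was dim at 3.22 to 4.18. Both replicate 3 arrays differed in markers as well. LYZ read 8.33 and 8.51 on siATF4 and siCTRL replicate 3, against 10.37 to 10.87 on the others. FLT3 read 8.19 and 8.27 there against 9.27 to 9.67, and KIT 4.14 and 4.09 against 5.41 to 6.48. CD14, CD4, CSF1R and MEIS1 were also lowest there, while MPO was highest, at 10.45 and 10.17, and SPI1 was neither. Whether a different cell state or mix on any of these arrays played a part in the results was not tested. The median over the interferon genes and some of the differences are given with and without siATF4 replicate 1.

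The genes were read beside their promoters because the ISRE offers a sequence to compare them by. RefSeq promoter entries of the GRCh38.p14 assembly were found for 35 of the 45, and the 250 bases before each gene start were searched on both strands. The ISRE core, spelled GAAANNGAAA, was present in 15 of the 35 (42.9%). It was present in 229 of 9672 promoters of the other protein-coding named genes (2.37%) and in 839 of all 27305 promoters of the table (3.07%). The following are 80-base windows, 5′ to 3′ on the strand of the gene, with the ISRE core or its reverse complement in capitals. The first 9 are from promoters whose genes differed most between arrays or whose families are compared below, SAMD9 has the motif but a steadier level, and IFIT1B has no match and stands between IFIT3 and IFIT1 on the chromosome.
IFIT1: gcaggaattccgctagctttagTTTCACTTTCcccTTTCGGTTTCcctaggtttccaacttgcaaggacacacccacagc
IFIT3: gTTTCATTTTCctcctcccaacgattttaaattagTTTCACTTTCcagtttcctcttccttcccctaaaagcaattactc
IFIT5: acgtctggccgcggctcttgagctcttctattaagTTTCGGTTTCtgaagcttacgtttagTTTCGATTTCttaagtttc
ISG15: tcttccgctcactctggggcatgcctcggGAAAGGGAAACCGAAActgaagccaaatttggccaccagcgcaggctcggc
DDX60: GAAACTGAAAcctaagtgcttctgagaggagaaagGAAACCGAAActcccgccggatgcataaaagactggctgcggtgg
EPSTI1: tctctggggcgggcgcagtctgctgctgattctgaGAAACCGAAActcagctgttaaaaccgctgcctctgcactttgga
IFI44L: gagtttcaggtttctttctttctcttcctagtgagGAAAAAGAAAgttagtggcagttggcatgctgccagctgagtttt
IFITM1: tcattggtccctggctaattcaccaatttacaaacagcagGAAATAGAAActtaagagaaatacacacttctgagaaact
IFITM3: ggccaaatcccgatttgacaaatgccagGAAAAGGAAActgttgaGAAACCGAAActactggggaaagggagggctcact
SAMD9: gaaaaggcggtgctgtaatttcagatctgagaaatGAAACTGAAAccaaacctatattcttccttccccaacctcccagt
IFIT1B: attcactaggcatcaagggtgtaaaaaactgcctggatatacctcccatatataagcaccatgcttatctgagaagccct
The windows are IFIT1 at chr10:89392485-89392564 (plus strand), IFIT3 at chr10:89327840-89327919 (plus strand), IFIT5 at chr10:89414488-89414567 (plus strand), ISG15 at chr1:1013355-1013434 (plus strand), DDX60 at chr4:168318761-168318840 (minus strand), EPSTI1 at chr13:42992247-42992326 (minus strand), IFI44L at chr1:78620340-78620419 (plus strand), IFITM1 at chr11:313960-314039 (plus strand), IFITM3 at chr11:320861-320940 (minus strand), SAMD9 at chr7:93118071-93118150 (minus strand) and IFIT1B at chr10:89377976-89378055 (plus strand). IFIT1, IFIT3, IFIT5, DDX60 and IFITM3 show 2 separate cores in their windows, and the 2 cores of ISG15 overlap. Of the 15 genes, 10 held more than 1 core in the 250 bases. The GAS core, TTCNNNGAA, was present in 9 of the 35 promoters (25.7%), against 5.9% of the other protein-coding named genes and 6.78% of all promoters. Both motifs occurred together in BST2, DDX60, EPSTI1 and IFITM1, and they overlapped each other in BST2 and EPSTI1. The core of the element that ATF4 itself binds with C/EBP partners, TGATGNAA, was found in 0 of the 35, in 1.83% of the other genes and in 3.19% of all promoters. A match describes these letters and is not a measured binding site.

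The interferon genes spread widely between arrays, and for each of the 45 the siATF4 and siCTRL levels overlapped. The siCTRL replicate 1 array gave the highest level of 30 of the 45 genes, where it was the highest array for 13.6% of all named genes. The lowest level fell on siATF4 replicate 1 for 15 genes (23.6% of all named genes), on siATF4 replicate 3 for 11 (15.4%) and on siCTRL replicate 3 for 12 (19.8%), a smaller excess over the background than that of the high values. The mean over the 45 genes was 5.40, 5.95 and 5.40 on siATF4 arrays 1, 2 and 3, against 6.39, 5.80 and 5.41 on siCTRL arrays 1, 2 and 3. The groups overlapped, and both replicate 3 arrays were low with either siRNA. Among the 3 siCTRL arrays alone, the median gene spanned 1.12 log2, against 0.31 for all named genes. Among the siATF4 arrays it spanned 0.97, against 0.33. The siCTRL replicate 1 array was at least 1 log2 above siCTRL replicate 3 for 21 genes (46.7%), a step that 2.32% of all named genes showed. Both of these arrays had the same siRNA.

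**Figure D1:**
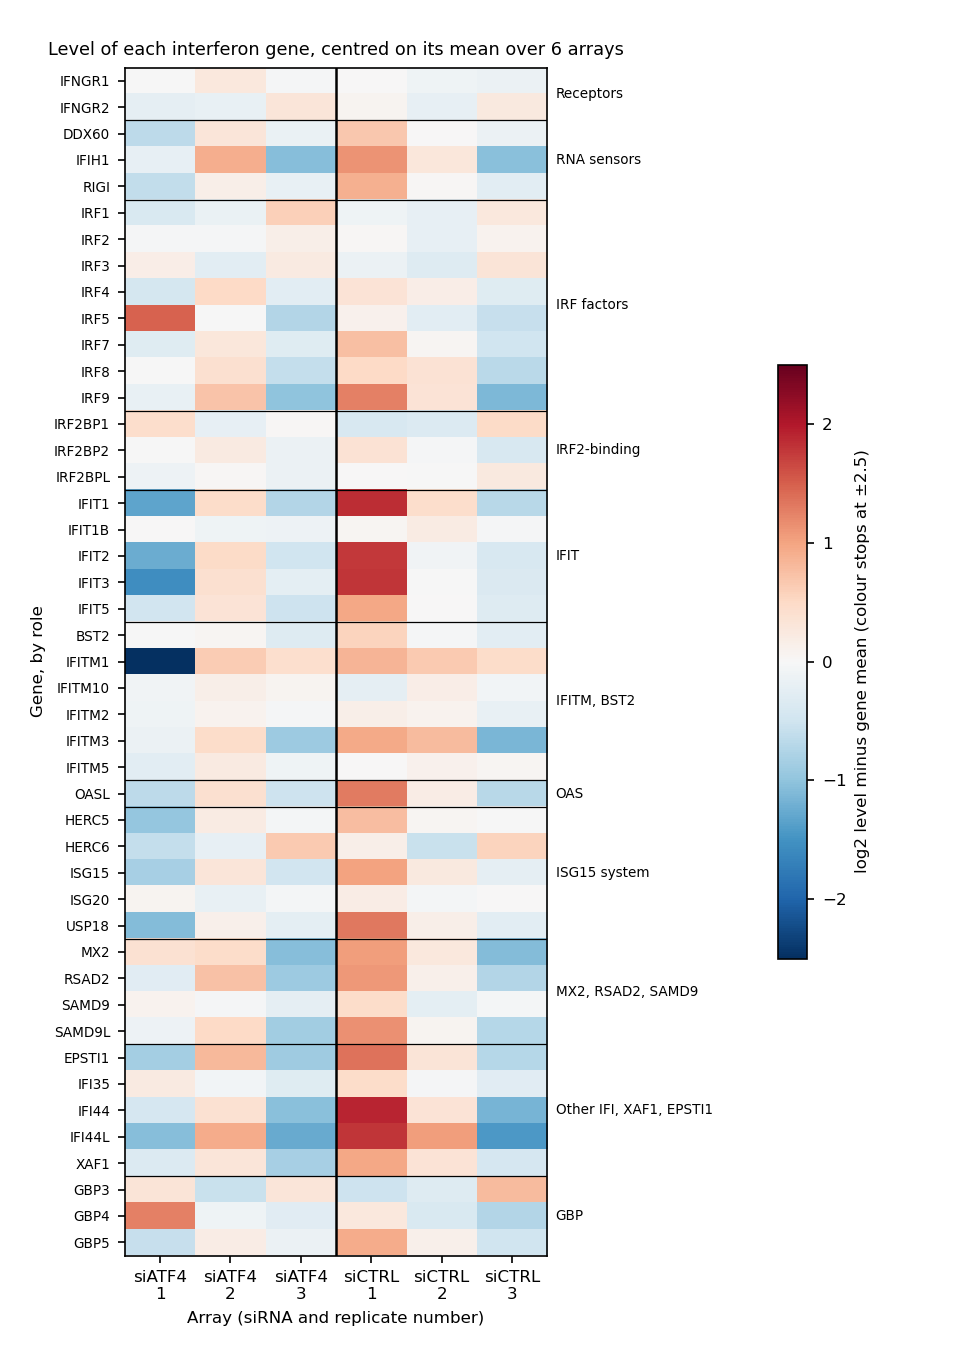
Level of each interferon gene on each array in log2, centred on that gene's mean over the 6 arrays, with the 3 siATF4 arrays left and the 3 siCTRL arrays right and genes grouped by role. The siCTRL replicate 1 column is high for most genes (highest for 30 of 45), and siATF4 replicate 1 and both replicate 3 columns hold most of the low values.

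No interferon gene passed the test between siATF4 and siCTRL. In limma fitted over all named genes, 0 of the 45 had an adjusted p below 0.05, with 0% of all genes called. The targeted gene ATF4 was not called either, with a difference of -0.80 (SE 0.14), a limma unadjusted p of 0.000823 and an adjusted p of 0.9999. A gene that was not called may therefore still differ. At an unadjusted p below 0.05 the count was 0 of 45, against 1.46% of all genes. No interferon gene separated the groups without overlap, against 5.89% of all genes, so none reached 0.1, the smallest two-sided p that an exact permutation test of 3 arrays against 3 can give. The lowest unadjusted p was 0.124, for ISG15, with a limma adjusted p of 1.00. With the replicate number as a block, GBP4 alone had an unadjusted p below 0.05, at 0.0147 (adjusted p 1.00), against 3.12% of all genes. The mean difference, siATF4 minus siCTRL, was nevertheless below 0 for 35 of the 45 genes (46.2% of all named genes were below 0), with a median of -0.17 log2 against 0.01 for all named genes. The median standard error was 0.38 for the interferon genes and 0.15 for all genes.

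That lower average came from 1 of the 3 replicate numbers. Set against the array of the same number, siATF4 minus siCTRL had a median over the 45 genes of -0.79 for number 1, 0.13 for number 2 and -0.02 for number 3, with 0.01, 0.02 and 0.02 for all named genes. In number 1, 22 interferon genes were at least 1 log2 lower (2.46% of all named genes were), and 27 were at least 0.5 lower (8.04%). GBP3, GBP4, IRF2BP1 and IRF5, 4 genes, were at least 0.5 higher (7.27% of all genes). In number 2, 0 interferon genes were at least 1 log2 lower (0.0134% of all genes), and in number 3 again 0 (0.181%). Lower in all 3 numbers were 5 genes, IFITM1, XAF1, IFI35, IFIT1B and ISG20 (9.2% of all genes). ATF4, the targeted gene, differed by a like amount in every number. It read 7.72, 7.88 and 8.14 on siATF4 arrays 1, 2 and 3, against 8.67, 8.64 and 8.85 on siCTRL arrays, with differences of -0.94, -0.76 and -0.70 by number. A test of the difference between numbers was not made, since each number has 1 array per group. The labels do not state that arrays of the same number belong together. Their deviations from group means correlated least across genes in number 1, at 0.20, against 0.40 and 0.62 in numbers 2 and 3. The siCTRL replicate 1 array correlated more with siATF4 replicate 2, at 0.48.

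**Figure D2:**
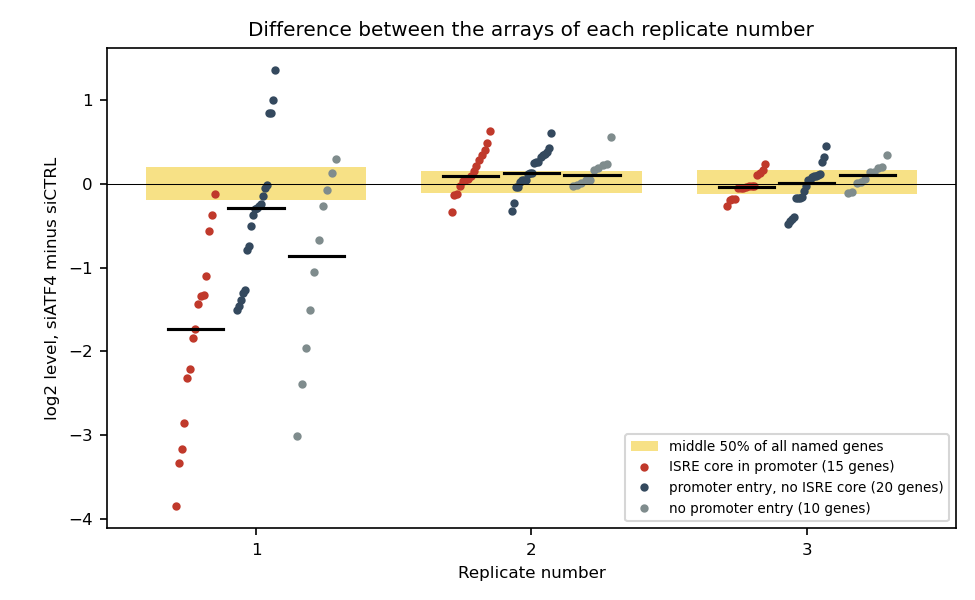
Difference siATF4 minus siCTRL in log2 for each of the 45 interferon genes within replicate numbers 1, 2 and 3, coloured by whether the promoter holds an ISRE core (15 genes), has an entry with no core (20) or has no entry (10), with a black line at each median and a band over the middle 50% of all named genes. The points reach -3.85 in number 1 and stay within 0.64 of 0 in number 2 and within 0.48 in number 3.

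The average depended on single arrays. Without siATF4 replicate 1, the array that stood apart, the median was -0.19 and 33 of 45 genes were lower (45.5% of all genes). Without siCTRL replicate 1 it was 0.00 and 24 were lower (47.2%). Without both, 13 of 45 were lower (43.9%) and the median was 0.07. Without siCTRL replicate 3 it was -0.50, and 6 genes had an unadjusted p below 0.05, the lowest 0.0315 for IFITM3, where 2.53% of all genes did, with 0 of the 45 called after adjustment.

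Of the receptors, the 2 subunits of the interferon-gamma receptor were measured. IFNGR1, the ligand-binding chain, read 7.49, 7.75 and 7.47 on siATF4 arrays, against 7.51, 7.40 and 7.35 on siCTRL arrays. IFNGR2, the second chain, read 7.12, 7.17 and 7.64 on siATF4 arrays, against 7.42, 7.14 and 7.59 on siCTRL arrays. The groups overlapped, with differences of 0.15 (SE 0.12) and -0.07 (SE 0.19). Their siCTRL ranges were 0.16 and 0.45, against a median of 1.12 for the 45 genes and 0.31 for all named genes.

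The RNA sensors followed the array pattern. RIGI, which recognises short double-stranded RNA ends, read 6.27, 7.04 and 6.70 on siATF4 arrays, against 7.78, 6.91 and 6.62 on siCTRL arrays. IFIH1, also known as MDA5 and a sensor of long double-stranded RNA, read 6.34, 7.46 and 5.49 on siATF4 arrays, against 7.68, 6.83 and 5.51 on siCTRL arrays. IFIH1 was low on both replicate 3 arrays, and its siATF4 replicate 2 value exceeded the siCTRL values of numbers 2 and 3. DDX60, a helicase linked to RIGI signalling, read 5.80, 6.75 and 6.28 on siATF4 arrays, against 7.12, 6.46 and 6.31 on siCTRL arrays. The differences were -0.43 (SE 0.33), -0.24 (SE 0.66) and -0.35 (SE 0.30), and 3 of 3 were lower on average without passing the test. In number 1 they were -1.51, -1.33 and -1.32.

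The interferon regulatory factors split. IRF9, of ISGF3, read 5.77, 6.68 and 4.96 on siATF4 arrays, against 7.23, 6.30 and 4.85 on siCTRL arrays. IRF7, which drives the genes that encode interferons and is itself an interferon target, read 4.80, 5.39 and 4.80 on siATF4 arrays, against 5.85, 5.15 and 4.60 on siCTRL arrays. Both were highest on siCTRL replicate 1, and their differences were -0.32 (SE 0.66) and -0.20 (SE 0.33). IRF3, which is held in the cytosol until a sensor signals, read 6.28, 5.85 and 6.34 on siATF4 arrays, against 5.97, 5.80 and 6.43 on siCTRL arrays. IRF1, an early interferon-gamma target, read 4.88, 5.11 and 5.86 on siATF4 arrays, against 5.15, 5.06 and 5.54 on siCTRL arrays. These 2 were not highest on siCTRL replicate 1, and they differed by 0.09 (SE 0.21) and 0.03 (SE 0.27). IRF8, a factor of the monocyte lineage, read 9.81, 10.22 and 9.23 on siATF4 arrays, against 10.32, 10.17 and 9.13 on siCTRL arrays. It was low on both replicate 3 arrays, and 90.2% of its sum of squares over the 6 arrays lay between replicate numbers. Over the 45 genes that share ran from 3.47% (HERC5) to 93.7% (IFI35). Its median was 58.5% over the 45 and 51.2% over all named genes. IRF5, which acts downstream of Toll-like receptors, read 6.24, 4.77 and 4.03 on siATF4 arrays, against 4.87, 4.51 and 4.20 on siCTRL arrays. Its high value was on siATF4 replicate 1, and its difference of 0.48 (SE 0.53) was -0.13 without that array. Over the 8 factors 4 were lower, with a mean difference of -0.02. IRF2BP1 (0.18), IRF2BP2 (0.06) and IRF2BPL (-0.16) had small differences, and a dimmer feature of IRF2BP2 differed by -0.25.

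Of the role groups, the IFIT family had the largest mean difference in number 1, at -2.20 log2. IFIT proteins bind foreign RNA and block its translation, and their 5 genes lie next to each other on chromosome 10. IFIT1 read 3.02, 4.79 and 3.60 on siATF4 arrays, against 6.18, 4.76 and 3.63 on siCTRL arrays. IFIT2 read 3.44, 5.16 and 4.18 on siATF4 arrays, against 6.46, 4.60 and 4.29 on siCTRL arrays. IFIT3 read 3.50, 5.44 and 4.79 on siATF4 arrays, against 6.83, 5.03 and 4.68 on siCTRL arrays. All 3 were lowest on siATF4 replicate 1 and highest on siCTRL replicate 1, and in numbers 2 and 3 the arrays lay within 0.56 log2 of each other. On siATF4 replicate 1 the signals of IFIT1, IFIT2 and IFIT3 were 11.1%, 12.4% and 9.94% of those on siCTRL replicate 1. The 3 siATF4 replicate 1 values lie below that array's median, and that of IFIT1 below its lower quartile, so background may add to them and these shares are upper limits. Averaged over 3 arrays the differences were -1.06 (SE 0.70), -0.85 (SE 0.65) and -0.94 (SE 0.68). Without siATF4 replicate 1 they were -0.66, -0.44 and -0.40. IFIT5 lay between 4.47 and 5.34 on siATF4 arrays, against 4.67 to 5.96 on siCTRL arrays, highest on siCTRL replicate 1 and lowest on siATF4 replicates 1 and 3. IFIT1B, the family member with no ISRE core in the 250 bases, stayed between 3.12 and 3.25 on siATF4 arrays and between 3.21 and 3.45 on siCTRL arrays. These values lie at or below the lower quartile of the arrays, so a change in it would be hard to see.

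**Figure D3:**
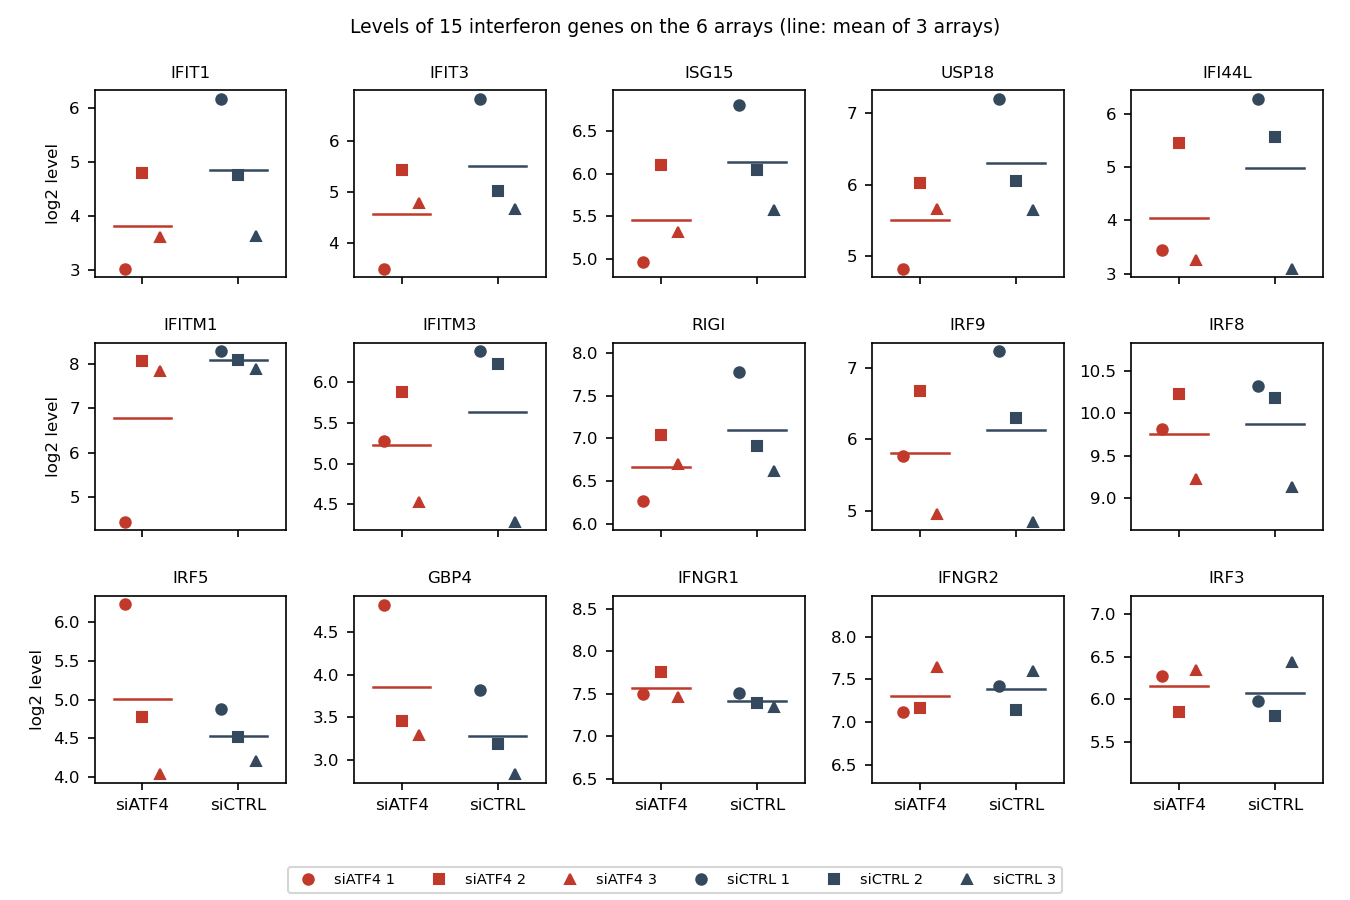
Log2 level of 15 interferon genes on each array, siATF4 left and siCTRL right in each panel, with a symbol for each replicate number, a line at the mean of 3 arrays and a separate vertical scale per gene. The number 1 points lie far apart for IFIT1 (3.02 for siATF4 and 6.18 for siCTRL) while those of numbers 2 and 3 nearly coincide, and IFITM1 is low on siATF4 replicate 1 alone.

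IFITM1 had a pattern of its own. The IFITM proteins sit in membranes and hinder virus entry, and IFITM5, IFITM2, IFITM1 and IFITM3 neighbour each other on chromosome 11. IFITM1 read 4.44, 8.07 and 7.86 on siATF4 arrays, against 8.29, 8.09 and 7.90 on siCTRL arrays. It was low on siATF4 replicate 1 alone and within 0.44 log2 on the other 5, whereas the IFIT genes were also lower on the replicate 3 than on the replicate 2 arrays. Its difference of -1.31 (SE 0.91) was the largest in size among the 45 genes and was -0.13 without siATF4 replicate 1. IFITM3 read 5.27, 5.88 and 4.53 on siATF4 arrays, against 6.38, 6.22 and 4.29 on siCTRL arrays, low on both replicate 3 arrays. IFITM2, between IFITM5 and IFITM1, was steady, with 8.61, 8.82 and 8.70 on siATF4 arrays, against 8.87, 8.81 and 8.55 on siCTRL arrays. BST2, or tetherin, which holds budding virus at the cell surface, read 6.30, 6.36 and 5.99 on siATF4 arrays, against 6.86, 6.26 and 6.04 on siCTRL arrays. Of the 6 genes 5 were lower on average and 0 passed the test.

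In the ISG15 system, ISG15, USP18 and HERC5 were lowest on siATF4 replicate 1 and highest on siCTRL replicate 1. ISG15 is a ubiquitin-like protein, HERC5 its ligase, and USP18 the protease that removes it and that also restrains the interferon receptor. ISG15 read 4.96, 6.10 and 5.31 on siATF4 arrays, against 6.80, 6.04 and 5.58 on siCTRL arrays. USP18 read 4.82, 6.03 and 5.65 on siATF4 arrays, against 7.21, 6.04 and 5.64 on siCTRL arrays. HERC5 read 5.01, 6.18 and 5.94 on siATF4 arrays, against 6.75, 6.03 and 5.96 on siCTRL arrays. For USP18 and HERC5 the siATF4 and siCTRL arrays of numbers 2 and 3 lay within 0.15 log2 of each other, while number 1 differed by -2.39 and -1.74. The averaged differences were -0.68 (SE 0.39) for ISG15, -0.80 (SE 0.46) for USP18 and -0.54 (SE 0.35) for HERC5. Without siATF4 replicate 1 they were -0.43, -0.46 and -0.19. HERC6, next to HERC5 on chromosome 4, differed by -0.10 and spanned 1.12 log2 within siCTRL. ISG20, an exonuclease, differed by -0.10 and was not lowest on siATF4 replicate 1 but on siATF4 replicate 2 (3.46). OASL, an inactive relative of the oligoadenylate synthetases that aids RIGI, read 4.24, 5.31 and 4.39 on siATF4 arrays, against 6.20, 5.08 and 4.20 on siCTRL arrays.

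Among restriction factors, MX2, a dynamin-like GTPase, read 5.22, 5.31 and 3.78 on siATF4 arrays, against 5.89, 5.12 and 3.76 on siCTRL arrays. RSAD2, or viperin, which makes a chain-terminating nucleotide, read 4.38, 5.39 and 3.76 on siATF4 arrays, against 5.76, 4.79 and 3.93 on siCTRL arrays. SAMD9L, an antiviral and growth-restraining protein, read 7.69, 8.31 and 6.94 on siATF4 arrays, against 8.95, 7.88 and 7.10 on siCTRL arrays. All 3 were lowest on the replicate 3 arrays with both siRNAs. For MX2, 93.6% of the sum of squares lay between replicate numbers, against a median of 51.2% for all named genes. SAMD9, the neighbour of SAMD9L on chromosome 7, ranged less, with a difference of -0.11 (SE 0.20).

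The remaining interferon-induced genes held some of the widest ranges. IFI44L and IFI44, neighbours on chromosome 1 of little known function, spanned 3.21 and 3.07 log2 within siCTRL. IFI44L read 3.45, 5.45 and 3.25 on siATF4 arrays, against 6.30, 5.57 and 3.09 on siCTRL arrays. IFI44 read 4.14, 4.93 and 3.51 on siATF4 arrays, against 6.45, 4.88 and 3.38 on siCTRL arrays. EPSTI1 read 3.68, 5.34 and 3.64 on siATF4 arrays, against 5.89, 4.85 and 3.82 on siCTRL arrays. For these genes both replicate 3 arrays were as low as siATF4 replicate 1 or lower, apart from siCTRL replicate 3 for EPSTI1. XAF1, which antagonises the apoptosis inhibitor XIAP, read 7.80, 8.45 and 7.30 on siATF4 arrays, against 9.10, 8.48 and 7.72 on siCTRL arrays. It was lower in all 3 numbers, by -1.30, -0.03 and -0.42, and averaged -0.58 (SE 0.41).

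The guanylate-binding proteins, GTPases that attack vacuoles of intracellular microbes and answer mainly to interferon-gamma, were mixed. GBP4 read 4.83, 3.45 and 3.29 on siATF4 arrays, against 3.83, 3.19 and 2.83 on siCTRL arrays, higher in each of the 3 numbers and with overlapping groups. GBP3 read 5.91, 5.02 and 5.89 on siATF4 arrays, against 5.06, 5.25 and 6.37 on siCTRL arrays. GBP5, next to GBP4 on chromosome 1, read 3.00, 3.75 and 3.42 on siATF4 arrays, against 4.50, 3.71 and 3.07 on siCTRL arrays. GBP5 was lowest on siATF4 replicate 1 and highest on siCTRL replicate 1, a difference of -1.50 in number 1 against 0.04 and 0.35 in numbers 2 and 3, while GBP3 and GBP4 had no such order. GBP4 and GBP5 lay near the lower quartile on several arrays, so their differences of 0.57 (SE 0.45) and -0.37 (SE 0.37) rest on dim signals.

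Grouped by promoter, a split chosen after the values were seen, the 15 genes with an ISRE core moved more between arrays than the 20 with an entry and no core. The split also parted kinds of genes. IRF1, IRF4, IRF5, IRF8, IRF9, both receptor chains and the IRF2-binding proteins were in the 20, and no such gene was in the 15. No match means that these letters were absent from the bases searched, not that a gene has no ISRE. Whether the core itself went with the movement, among genes of the same kind, was not tested. The mean of the 15 was 4.77, 5.93 and 5.03 on siATF4 arrays, against 6.61, 5.78 and 5.06 on siCTRL arrays. The mean of the 20 was 5.97, 6.08 and 5.73 on siATF4 arrays, against 6.29, 5.92 and 5.77 on siCTRL arrays. In number 1 the median difference was -1.74 with a core and -0.29 without, and 12 of 15 against 5 of 20 genes were at least 1 log2 lower. RIGI, XAF1, IRF9, RSAD2 and SAMD9L were the 5 without a core. ISG20, SAMD9 and BST2 had a core and differed by -0.12, -0.38 and -0.56. ISG20 was dim, at 3.46 to 3.82. Among the 20, IFIT1B, GBP4, IRF4 and IFITM5 lay below the lower quartile on 5, 3, 3 and 2 arrays, where a fall would be hard to see. Among the 15, IFI44L, IFI44 and IFIT1 did so on 2, 1 and 1. Between control arrays, siCTRL replicate 1 exceeded siCTRL replicate 3 by a median of 1.29 with a core and 0.66 without, against 0.00 for all named genes. Both comparisons share the siCTRL replicate 1 array, so the second is not independent of the first. The 10 genes with no promoter entry, IFIT2, USP18 and OASL among them, had a median of -0.86 in number 1. The averaged difference of the 15 was -0.57, and it was -0.34 without siATF4 replicate 1, -0.18 without siCTRL replicate 1 and 0.06 without both. The genes share arrays and several are neighbours, so they are not independent and no test was made.

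Other genes of the pathway, taken from lists outside the name rule, had 45 of 109 members measured and 0 called by limma. The groups did not overlap for 4 of them, where 5.89% of all genes showed this. The genes that encode interferons, 0 of 21 of which had a named feature, were not analysed here. Of 13 Janus kinase, STAT and feedback genes 6 were measured and 4 were lower (46.2% of all named genes were). JAK2 differed by 0.36 and SOCS3, a feedback inhibitor, by -0.29. Of 20 genes of nucleic acid sensing 17 were measured and 9 were lower. EIF2AK2, the RNA-activated kinase PKR, read 7.69, 8.74 and 8.19 on siATF4 arrays, against 9.16, 8.60 and 7.95 on siCTRL arrays, lowest on siATF4 replicate 1 and highest on siCTRL replicate 1 like the IFIT genes. TBK1, the kinase that activates IRF3, read 7.67, 7.84 and 7.86 on siATF4 arrays, against 8.09, 7.98 and 7.93 on siCTRL arrays, with no overlap and a small difference of -0.21 (SE 0.11). The adaptor TRAF3 differed by -0.37, with number differences of -0.98, -0.01 and -0.14. Of 34 further interferon-stimulated genes 15 were measured and 9 were lower, with a mean difference of -0.06. DTX3L differed by -0.27 with no overlap and PLSCR1 by -0.34, the latter with number differences of -1.35, 0.30 and 0.04. TRANK1 was higher with no overlap, at 5.74, 5.37 and 5.53 on siATF4 arrays, against 5.33, 4.79 and 5.14 on siCTRL arrays (difference 0.46, SE 0.17). Only the brightest of the 5 features of TRANK1 was read.

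Targets of interferon-gamma and antigen presentation had 7 of 21 members measured, and 7 were lower, where 46.2% of all named genes were. SECTM1 and TAPBP were both only -0.01. In numbers 1, 2 and 3, 7, 4 and 4 of the 7 were lower, with mean differences of -1.66, -0.03 and -0.13. The chemokine CXCL10, which draws T cells and is induced by both interferon types, had the widest range. It read 3.16, 8.34 and 3.63 on siATF4 arrays, against 9.73, 8.79 and 3.63 on siCTRL arrays. It was thus near the lower quartile on siATF4 replicate 1 and on both replicate 3 arrays and bright on the other 3, with number differences of -6.56, -0.45 and 0.01. CXCL11 differed by -0.85 (SE 0.45), with number differences of -2.37, 0.22 and -0.41. WARS1, the cytosolic tryptophanyl-tRNA synthetase, is induced by interferon-gamma and is also a known ATF4 target. It read 6.89, 7.08 and 7.27 on siATF4 arrays, against 7.68, 7.38 and 8.05 on siCTRL arrays, without overlap and lower in all 3 numbers. Its difference of -0.62 (SE 0.20) did not pass the adjusted limma test, and only the brighter of its 2 features was read.

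**Figure D4:**
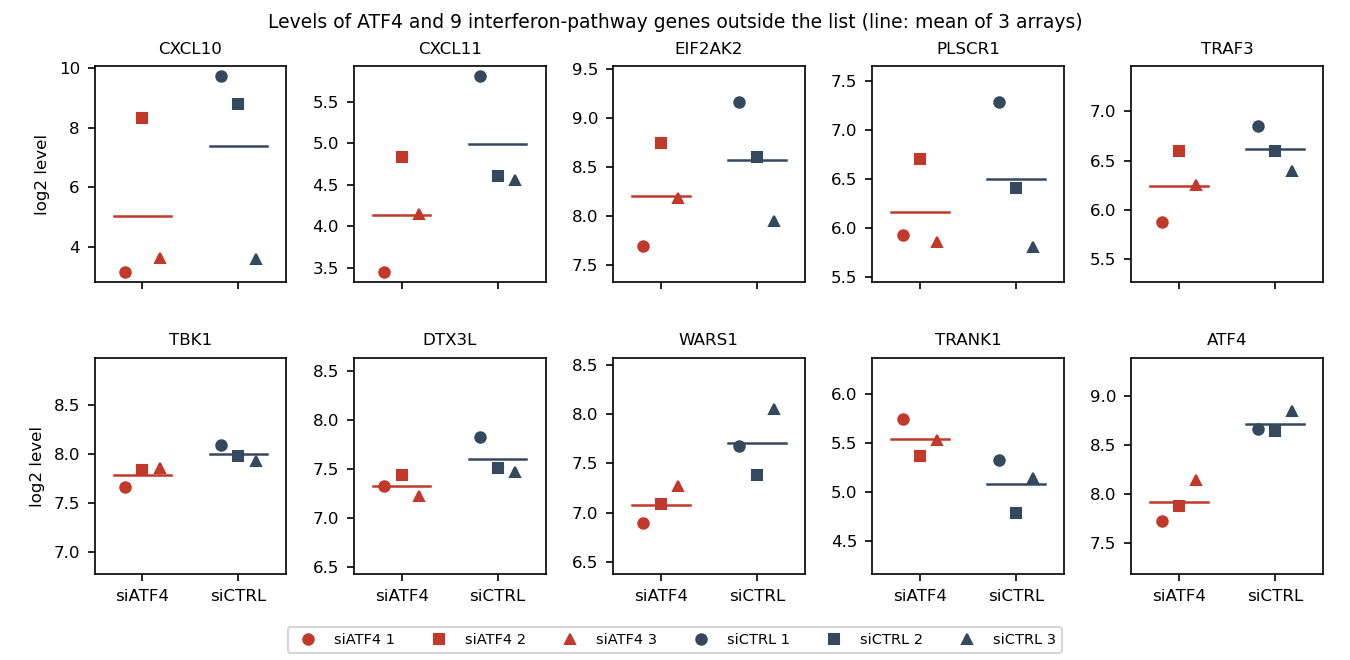
Log2 level of 9 pathway genes outside the name rule and of ATF4 on each array, siATF4 left and siCTRL right in each panel, with a symbol for each replicate number, a line at the mean of 3 arrays and a separate vertical scale per gene. CXCL10 spreads over more than 6 log2 with overlapping groups, WARS1, TBK1, DTX3L and TRANK1 separate the groups with differences of -0.62, -0.21, -0.27 and 0.46, and ATF4 has 3 siATF4 points below 3 siCTRL points.

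Among 11871 protein-coding genes outside the 45, those nearest to the mean centred profile of the interferon genes over the 6 arrays were sought. The 10 with the smallest root mean square distance were DPYD (0.059 log2), HIVEP1 (0.077), UNC79 (0.077), ST14 (0.079), AGRN (0.089), SDC2 (0.092), LAP3 (0.092), ETHE1 (0.093), LUM (0.093) and GPR82 (0.096), where the median gene lay at 0.405. LAP3, an aminopeptidase, is in the list of further interferon-stimulated genes. UNC79, LUM and GPR82 lay below the lower quartile on 3 arrays each. Likeness over 6 arrays is a description and carries no test.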

How the data were processed

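RNA of MOLM14 cells was labelled for Affymetrix arrays with a whole-transcript kit, per the labels. The authors made the deposited log2 values for 53617 features on 6 arrays. Per the submitters' processing notes, the authors used Partek. The normalization and background correction are not given in the sources used here, and neither is the base of the logarithm, read here as 2 from values of 1.91 to 14.2. The number of arrays limits the precision.

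An annotation table named 16098 features with 1 gene symbol, 0 with several and left 37519 unnamed. All 16098 gene identifiers matched the gene table and 0 symbols changed. Where a gene had several features (779 genes), the one with the highest mean was used, which gave 14884 genes. All of them were fitted with lmFit and eBayes of limma 3.58.1 (R 4.3.3), with group as the only term, Benjamini-Hochberg adjustment and a threshold of 0.05. SE is limma's moderated standard error. The code of the fit was run on simulated data with independent noise for each gene. These held no effect of replicate number and no array that stood apart, so the run does not bear on how the fit deals with either.

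The interferon genes, the lists and the tests were chosen with earlier results of these data known. Values per array are given for ATF4, for up to 3 genes of each role with the largest differences, for a fixed set of regulators and, outside the 45, for genes without overlap and the 2 largest differences of each list. IFIT5, IFIT1B, IFITM2, IFITM3, BST2, XAF1, EIF2AK2 and CXCL10 and the comparisons of single arrays were also read with their values in view.

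The labels number the arrays 1 to 3 in both groups. Deviations from group means correlated across genes at 0.20, 0.40 and 0.62 between arrays of the same number, all above the limit of 0.1. The numbers were therefore taken as pairs in the differences by number and in the replicate block. SE values and p-values given without mention of the block come from the fit without pairs. The pairing rests on the data, not on the labels, and siATF4 replicate 2 also correlated with siCTRL replicate 1 at 0.48.

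Other settings tried were the replicate block, quantile normalization, arrays shifted to equal medians, a trend with a robust prior, the dimmest 33.3% of genes left out, features averaged per gene, all features tested, an adjusted threshold of 0.01, and each array or both arrays of a number left out.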

Additional observations from a re-analysis of the deposited data

How the results depend on the processing

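No call changed under any alternative run: 0 interferon genes and 0 of all genes were called in each, and the lowest adjusted p of any of them over the settings was 0.9857, without replicate 3 in both groups. With the replicate block the same differences were fitted, the lowest unadjusted p was 0.0147 and 0 genes were called, and the block changed no other call. All genes at an unadjusted p below 0.05 numbered 218 in the main fit, 464 with the block, 395 without siATF4 replicate 2 and 144 without replicate 2 in both groups. The median over the 45 genes, -0.17, was -0.20 after quantile normalization and -0.24 without the dimmest 33.3% of genes, and ran from -0.50 to 0.07 with arrays left out, above 0 only without replicate 1 in both groups. The mean difference of the IFIT family was 0.07 and that of the ISG15 system 0.02 without replicate 1 in both groups, and that of the IRF2-binding proteins was 0.13 without replicate 3 in both groups. IRF2BP2 was -0.095 with the mean of its features. Without replicate 1 in both groups 23 of the named genes changed sign: BST2 0.02, DDX60 0.13, EPSTI1 0.15, GBP3 -0.36, GBP5 0.20, HERC5 0.063, IFI44 0.092, IFI44L 0.022, IFIH1 0.31, IFIT1 0.0002, IFIT2 0.23, IFIT3 0.26, IFNGR2 0.037, IRF2BP1 -0.15, IRF3 -0.019, IRF7 0.22, IRF8 0.072, IRF9 0.24, MX2 0.11, OASL 0.21, RIGI 0.11, RSAD2 0.22 and SAMD9L 0.14. Also turned were IRF1 -0.11 without replicate 3 in both groups, IRF2BP2 -0.049 without replicate 2 in both groups and IRF2BP2 -0.05 without replicate 3 in both groups. Single arrays left out changed the sign of 13 genes without siCTRL replicate 1, of 9 without siATF4 replicate 3, of 4 without siCTRL replicate 2 and of 3 without siATF4 replicate 1. Over the single arrays left out, the genes that turned ranged as follows: BST2 -0.35 to 0.063, GBP3 -0.21 to 0.45, GBP5 -0.71 to 0.0007, IFI44 -1.47 to 0.063, IFIH1 -0.82 to 0.26, IFNGR2 -0.24 to 0.031, IRF1 -0.26 to 0.23, IRF2BP2 -0.13 to 0.25, IRF3 -0.047 to 0.27, IRF5 -0.13 to 0.98, IRF7 -0.50 to 0.12, IRF8 -0.49 to 0.14, IRF9 -0.96 to 0.23, MX2 -0.74 to 0.34, OASL -0.99 to 0.0052, RSAD2 -0.76 to 0.15 and SAMD9L -0.77 to 0.16. The cause was not tested. ISG15, USP18, IFITM1, IFITM3 and IRF2BPL stayed below 0 and GBP4 and IFNGR1 above 0 in each of these. Without replicate 1 in both groups, however, USP18 was only -0.0011, IFITM1 -0.033, IFITM3 -0.049 and ISG15 -0.10. IRF2BPL was -0.17 there, GBP4 0.36 and IFNGR1 0.24. Dim genes such as GBP5, IFIT1B and IRF4 lie near background on some arrays, which limits what can be seen of a fall in them.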

Other observations

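The functions of the genes that set siATF4 replicate 1 apart were not examined. Some of the low ones are given here as examples, and the 20 that were high on that array are not named. Among the 22 that were at least 2 log2 lower there than on all other arrays, IGF2BP1, an RNA-binding protein of fetal cells, read 3.39 on siATF4 replicate 1 and 7.22 to 7.72 on the other 5 arrays. The cyclin gene CCND2 read 3.41 there and 7.05 to 7.66 elsewhere. The amyloid precursor gene APP read 4.37 there and 7.80 to 8.01 elsewhere, and the Notch ligand gene JAG1 read 5.30 there and 8.05 to 8.32 elsewhere. IFITM1, at 4.44 there and 7.86 to 8.29 elsewhere, had the same shape as these genes. These genes were chosen for that array, so the values are a description. ATF4 itself read 7.72 on that array, within 0.42 log2 of the other siATF4 arrays.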
